A study of Homo sapiens with 4 samples.

Results

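The collagen genes are the rows of the count table whose symbol is COL, a number, A and a number, such as *COL1A1*, and 42 of the 18449 symbols met this rule. RNA of BT-16 and CHLA-266, 2 patient-derived, established cell lines of the MYC subgroup of atypical teratoid/rhabdoid tumor (AT/RT-MYC), was sequenced before and after chemotherapy. The treated cells received 1 µM doxorubicin (doxo), 5 µM etoposide (eto) and 1 µM vincristine (vin). The agents were given in this order on 3 consecutive days, 1 agent per day. The treated cells were harvested once the surviving cells had regrown, whereas the untreated cells received none of the 3 agents. There was 1 library per cell line and condition, which makes 2 per condition. All 4 libraries carry the same batch label, and all cells grew in serum-containing medium. The authors removed genes of the sex chromosomes from the table, so the X-linked type IV chains *COL4A5* and *COL4A6* were not analysed here.

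Collagens are proteins of the extracellular matrix (ECM) in which 3 chains wind into a triple helix, and the genes encode single chains. Fibrillar collagens form the banded fibrils of bone, tendon, skin and cartilage, type IV collagens form the sheet of basement membranes, and type VI collagens form beaded filaments around cells. The other collagens decorate fibrils, anchor epithelia, span the plasma membrane or form short-chain networks. In the normal brain, fibrillar collagen is scarce outside vessels and meninges, and type IV collagen lines the vessels.

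The total count was 75087193 for untreated and 51489712 for treated BT-16 cells, and 66192504 for untreated and 49849257 for treated CHLA-266 cells. The number of genes with a count went from 16079 to 17815 in BT-16 cells and from 15464 to 17114 in CHLA-266 cells, although the treated libraries were the smaller ones. Olfactory receptor genes, which are used by the nasal epithelium and serve here as genes that these cells should not use, moved the same way. The table held 381 such symbols, and 335 of them had an exon length and a count in any library. Symbols without a count in any library, treated or untreated, are left out of the percentiles and means of this level. Of the 335 genes, 121 had a count before and 294 after treatment in BT-16 cells, whereas CHLA-266 cells had 90 and 209. The 95th percentile of their level, in counts per kilobase of exon, went from 4.17 to 31.3 in BT-16 cells and from 4.38 to 23.6 in CHLA-266 cells. *SMARCB1*, the gene whose loss defines most AT/RT, held 827 to 1394 counts, and *MYC* held 6804 to 14275 counts. In bulk RNA, a larger share of cells that use a gene and more RNA of it per cell cannot be told apart.

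Collagens made up a small share of the RNA in every library, and few genes carried it. The 42 genes together held 0.0959% and 0.124% of all counts in untreated and treated BT-16 and 0.105% and 0.137% in untreated and treated CHLA-266. *COL26A1*, a collagen with a short triple helix whose function is little known, and *COL5A1*, the α1 chain of type V collagen, which sits in the core of type I fibrils, were the highest of the 42 genes in each library. Levels are compared between genes as counts per kilobase of all exons, since a longer transcript gives more reads. With the length of the canonical transcript in place of all exons, which was chosen after seeing the data, *COL18A1* lay above *COL26A1* in treated CHLA-266, at 1444 against 1179 counts per kilobase. Per kilobase of all exons *COL26A1* held 53.2% and 46.2% of the collagen level in untreated BT-16 and CHLA-266, and 15.7% and 14.9% in the treated cells. *COL5A1* held 25.6% and 27.1% before and 38.1% and 40.5% after treatment, so the order of these genes turned in both cell lines. *COL4A1*, *COL4A2*, *COL6A1*, *COL6A2*, *COL17A1* and *COL18A1* followed among the 9 highest collagens of every library, and *COL7A1* was among them only in the treated libraries.

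**Figure D1:**
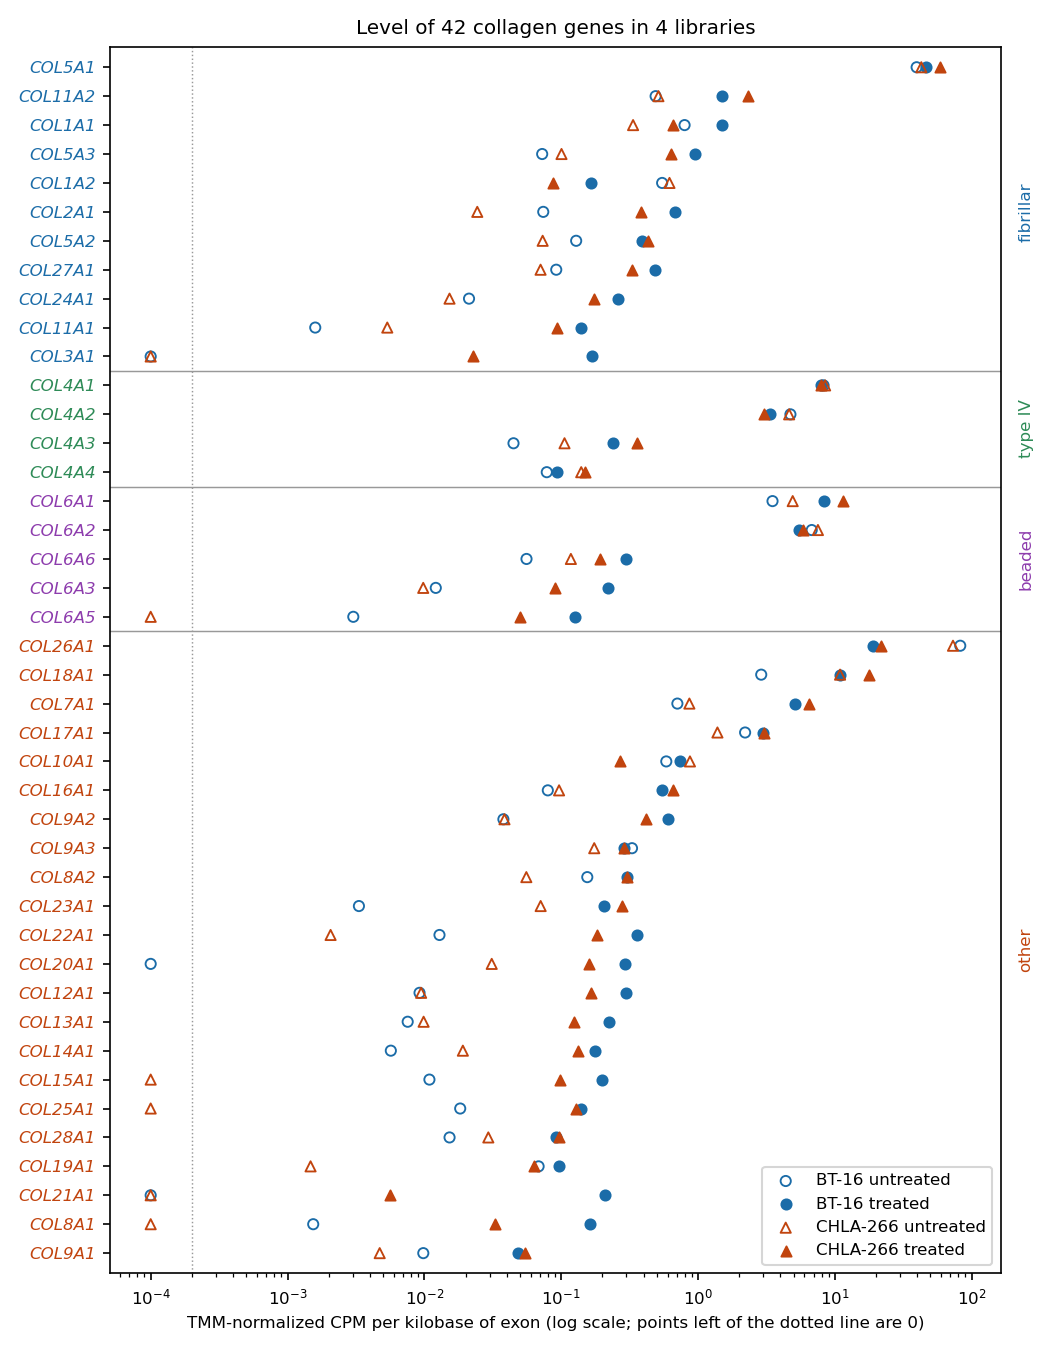
Level of each of the 42 collagen genes in the 4 libraries, as TMM-normalized CPM (counts scaled to the effective library size) per kilobase of exon on a log scale, grouped by class and ordered by mean level. Open symbols are untreated and filled symbols treated libraries, circles are BT-16 and triangles CHLA-266, and each symbol is 1 library. *COL5A1* and *COL26A1* lie at the right, and most low collagens have their filled symbols to the right of their open ones.

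After treatment, 23 of the 42 collagen genes were higher, 3 were lower and 16 did not pass the test, which was the quasi-likelihood test of edgeR over the 18066 genes with any count, with a threshold of an adjusted *p* under 0.05. All 42 collagens had a count and were tested. Of all genes tested, 16.1% were higher and 19.1% lower, and the median log2 fold change was 2.51 over the collagens and 0.24 over all genes. The fitted log2 fold change was above 0 in 36 of the 42 collagens and in 10350 of the 18066 genes tested. With the cell line as a block, which compares each treated library with the untreated library of the same line, 27 collagens were higher and 3 lower, against 17.9% and 23.7% of all genes. The block called the same 23 genes and added *COL1A1*, *COL17A1*, *COL18A1* and *COL25A1*. When each library was left out in turn, 15 of the 23 higher genes and 2 of the 3 lower genes passed every time. *COL3A1*, *COL8A1*, *COL11A1*, *COL15A1*, *COL21A1* and *COL6A5* did not pass without treated BT-16, *COL4A3* and *COL5A2* did not pass without treated CHLA-266, and *COL4A2* passed only with all libraries or without treated BT-16.

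**Figure D2:**
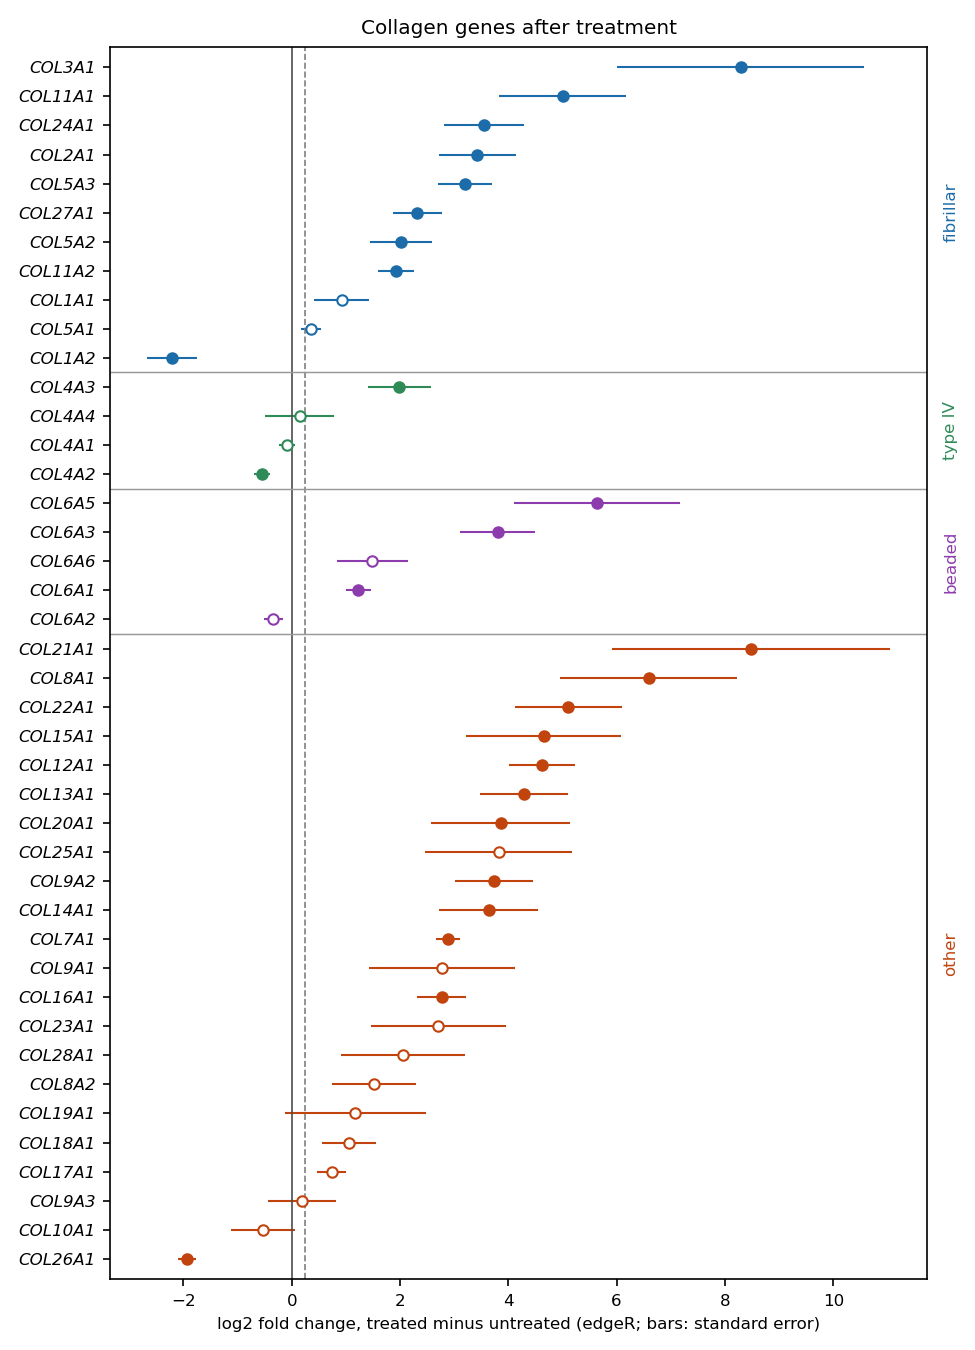
Log2 fold change, treated minus untreated, of each collagen gene from edgeR over 2 libraries per condition, with bars for the standard error (SE). Filled circles passed the threshold, open circles did not, the solid line is 0 and the dashed line is the median of all genes (0.24). The values of *COL3A1* and *COL21A1*, which had no count in either untreated library, depend on the prior count of the fit and are not bounds.

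The classes differed in how many of their members passed. Among the 11 fibrillar collagens, 8 were higher and 1 lower, with a median log2 fold change of 2.32. The 4 type IV collagens had 1 higher and 1 lower gene and a median of 0.03. Among the 5 beaded collagens, 3 were higher and 2 did not pass, with a median of 1.49, and among the 22 others 11 were higher and 1 lower, with a median of 2.83. Of all genes tested, 16.1% were higher and 19.1% lower. Of the higher collagens, 2 fibrillar, 0 type IV, 1 beaded and 2 other genes lay above the 95th percentile of the olfactory receptor genes in both treated libraries. No difference between classes was tested, since genes are not replicates. As a share of the summed level per kilobase, fibrillar collagens held 27.0% and 28.2% in untreated and 43.2% and 44.0% in treated BT-16 and CHLA-266, and beaded collagens held 6.68% and 7.95% before and 11.9% and 12.1% after. Type IV collagens held between 7.85% and 9.57% in all libraries (13.5% to 16.5% with the length of the canonical transcript in place of all exons), and the other collagens held 57.9% and 55.4% before and 35.4% and 36.1% after. Without *COL5A1* and *COL26A1*, fibrillar collagens held 6.77% and 4.16% before and 11.1% and 7.89% after treatment, type IV collagens 39.95% and 31.6% before and 20.7% and 17.6% after, beaded collagens 31.5% and 29.7% before and 25.7% and 27.2% after, and the other collagens 21.8% and 34.5% before and 42.6% and 47.3% after. The direction thus turned for the beaded and the other collagens in both cell lines and for type IV collagens in BT-16.

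Most of the higher collagens were low genes. In both untreated libraries, 20 of the 23 had under 100 counts. In the treated libraries, 5 of the 23 (*COL5A3*, *COL6A1*, *COL7A1*, *COL11A2* and *COL16A1*) lay above the 95th percentile of the olfactory receptor genes in both cell lines, *COL2A1* and *COL9A2* did so in BT-16 only, and 16 did so in neither. Of the 5, *COL16A1* lay close to it in BT-16, at 31.7 against 31.3 counts per kilobase. Among all 42 collagens, 13 lay above this level in both treated and 18 in both untreated libraries. Among all genes tested that have an exon length, 10644 lay above it in both treated libraries. When the mean olfactory receptor level of each library was subtracted from every gene in proportion to its exon length, which was chosen after seeing the data, 13 collagens were higher and 2 lower. That fit called 2042 of all 17376 genes tested higher and 2723 lower. It dropped 12 of the 23 collagens and added *COL5A1* and *COL17A1*. The part that the level of such genes plays in the other differences was not tested.

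**Figure D3:**
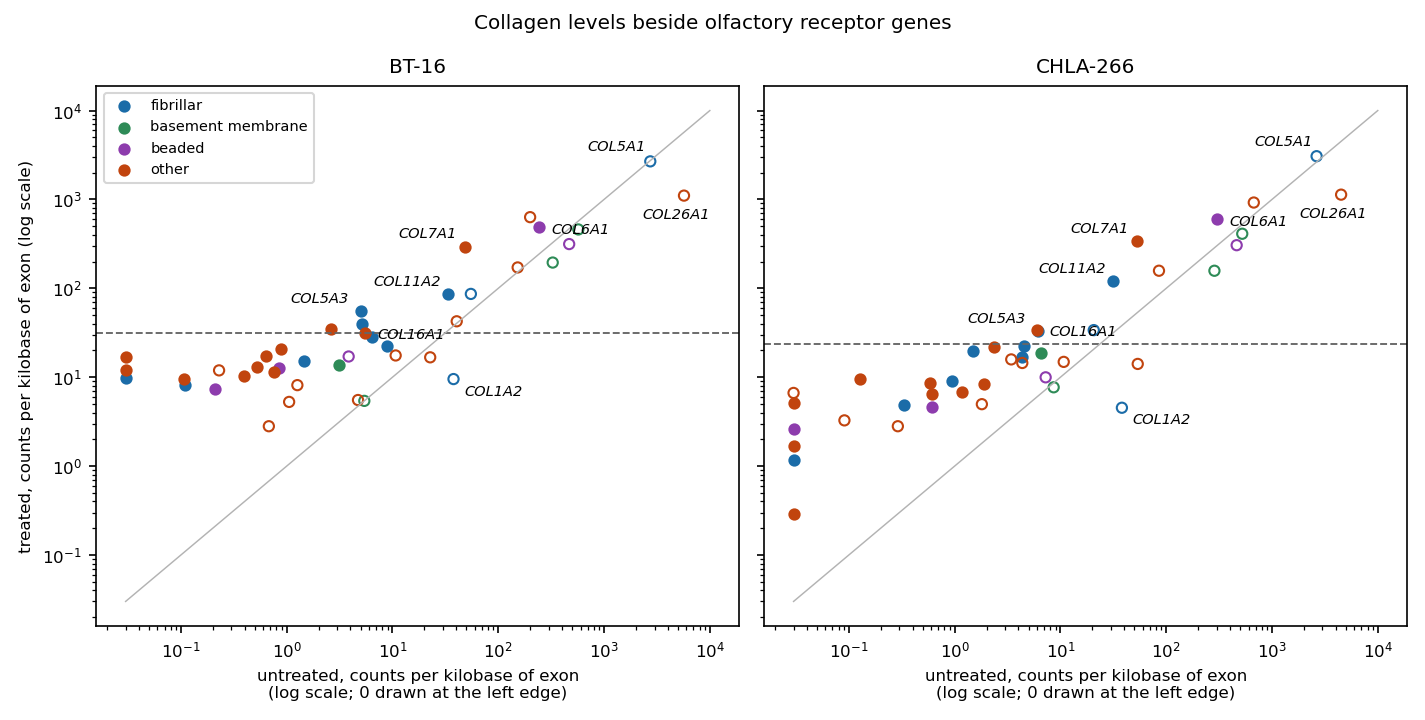
Counts per kilobase of exon of each collagen in the untreated (horizontal axis) and treated library (vertical axis) of each cell line, on log scales, with 0 drawn at the left edge. Filled points are the 23 genes called higher, the dashed line is the 95th percentile of the olfactory receptor genes in the treated library (31.3 for BT-16, 23.6 for CHLA-266), and the solid line marks equal counts. The filled points above the dashed line number 7 in BT-16 and 5 in CHLA-266.

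In the fibrillar class, *COL5A1* was the highest collagen per kilobase after treatment, lay below only *COL26A1* before it, and did not pass the test, whereas most of the low fibrillar genes passed. *COL5A1* had 30520 counts before and 29916 after treatment of BT-16 cells, with 29464 and 34207 in CHLA-266 cells. After normalization it was higher in both treated libraries, but its log2 fold change of 0.35 ± 0.18 (SE) missed the threshold with an adjusted *p* of 0.156, and 6 of 11 alternative analyses (other normalizations, filters, models and tools) put it past the threshold. Pairs of counts are given in this order, untreated before treated, for every gene that follows. Its partner chain *COL5A2* had far fewer reads, at 65 and 165 counts in BT-16 cells, with 33 and 164 in CHLA-266 cells (log2 fold change of 2.02, adjusted *p* = 0.0249). *COL5A3*, the third type V chain, had 34 and 376 counts in BT-16 cells, with 42 and 223 in CHLA-266 cells, so that each treated library lay above each untreated one (log2 fold change of 3.20 ± 0.50, adjusted *p* = 0.00207).

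The type I chains had log2 fold changes of opposite sign. *COL1A2*, the α2 chain, fell from 408 to 103 counts in BT-16 cells and, in CHLA-266 cells, from 412 to 49, with no overlap between conditions (log2 fold change of -2.21 ± 0.46, adjusted *p* = 0.00758). *COL1A1*, the α1 chain, had 496 and 779 counts in BT-16 cells, with 186 and 305 in CHLA-266 cells. The untreated library of BT-16 lay above the treated one of CHLA-266 in counts, and the log2 fold change of 0.92 ± 0.51 had an adjusted *p* of 0.183 in this fit, and of 0.0132 in the fit with the block. *COL3A1*, a fibrillar collagen of distensible tissue such as skin and vessel wall, had no count in either untreated library and 66 and 8 counts in treated BT-16 and CHLA-266. With a floor of 3 counts, its change was thus at least 14.1-fold over the 2 libraries of each condition. The bound was 26.25-fold in BT-16 and 3.16-fold in CHLA-266. Its call had an adjusted *p* of 0.0263. The log2 fold change was 6.25 without treated BT-16, and up to 9.17 with another library left out. *COL3A1* lay below the 95th percentile of the olfactory receptor genes in both treated libraries, and did not pass with the olfactory receptor level subtracted (adjusted *p* = 0.248).

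The fibrillar genes of cartilage were higher after treatment, and of these only *COL11A2* had 100 counts or more before it. *COL11A2*, a chain of type XI collagen, was the highest of them, at 249 and 635 counts in BT-16 cells, with 233 and 889 in CHLA-266 cells (log2 fold change of 1.92, adjusted *p* = 0.00293). *COL2A1*, which encodes the main collagen of cartilage fibrils, had 34 and 263 counts in BT-16 cells, with 10 and 133 in CHLA-266 cells (3.43, adjusted *p* = 0.00754). *COL11A1*, another type XI chain, had 1 and 74 counts in BT-16 cells, with 3 and 44 in CHLA-266 cells (5.00, adjusted *p* = 0.0124). The conditions did not overlap for any of these genes. *COL27A1*, a minor fibrillar collagen used in growing cartilage, had 89 and 393 counts in BT-16 cells, with 61 and 238 in CHLA-266 cells (2.32, adjusted *p* = 0.00585). *COL24A1*, a minor fibrillar collagen, had 14 and 144 counts in BT-16 cells, with 9 and 86 in CHLA-266 cells (3.55, adjusted *p* = 0.00755). *COL11A1*, *COL24A1* and *COL27A1* lay below the 95th percentile of the olfactory receptor genes in both treated libraries. With the olfactory receptor level subtracted, *COL11A1* and *COL24A1* did not pass (adjusted *p* of 0.229 and 0.0511).

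In the type IV class, the abundant genes had small log2 fold changes. *COL4A1* and *COL4A2*, the chains that form the common basement membrane network, were among the most abundant collagens. *COL4A1* had 8373 and 6735 counts in BT-16 cells, with 7670 and 6026 in CHLA-266 cells. The log2 fold change of -0.08 ± 0.15 did not pass the test (adjusted *p* = 0.682), and its sign was positive with upper-quartile normalization, library totals, the filter on 10 counts and the subtracted olfactory receptor level. *COL4A2* had 6301 and 3755 counts in BT-16 cells, with 5501 and 3037 in CHLA-266 cells. It was lower in both treated libraries (log2 fold change of -0.55 ± 0.16, adjusted *p* = 0.0251), passed in 6 of 11 alternative analyses, and did not pass when any library other than treated BT-16 was left out (adjusted *p* of 0.0829 to 0.109). In the annotation used here *COL4A1* and *COL4A2* overlap at their starts on opposite strands, and it is not given in the sources used here whether the counting used the strand. *COL4A3* and *COL4A4*, chains of the basement membrane of kidney glomerulus, lung and inner ear, were low. *COL4A3* had 38 and 170 counts in BT-16 cells, with 80 and 229 in CHLA-266 cells (log2 fold change of 1.99, adjusted *p* = 0.0304), whereas *COL4A4* had 64 and 64 in BT-16 cells, with 102 and 91 in CHLA-266 cells (0.15, adjusted *p* = 0.869).

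Among the beaded collagens, the 3 chains that build type VI collagen had different log2 fold changes. *COL6A1* rose from 1339 to 2676 counts in BT-16 cells and, in CHLA-266 cells, from 1678 to 3294, and the conditions did not overlap (log2 fold change of 1.23 ± 0.23, adjusted *p* = 0.00488). *COL6A2*, its neighbour on chromosome 21, had 2496 and 1678 counts in BT-16 cells, with 2472 and 1630 in CHLA-266 cells. It did not pass (log2 fold change of -0.34, adjusted *p* = 0.161), and with upper-quartile normalization its value was 0.01. *COL6A3*, whose long chain completes the type VI trimer, had 18 and 273 counts in BT-16 cells, with 13 and 100 in CHLA-266 cells (3.80, adjusted *p* = 0.00415). *COL6A5* and *COL6A6* encode chains that can take the place of the α3 chain. *COL6A5* had 2 and 70 counts in BT-16 cells, with 0 and 25 in CHLA-266 cells (adjusted *p* = 0.0223), and *COL6A6* had 34 and 151 in BT-16 cells, with 64 and 88 in CHLA-266 cells (1.49, adjusted *p* = 0.105).

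*COL7A1* showed the smallest adjusted *p* of the collagens. It encodes the chain of type VII collagen, which forms the anchoring fibrils below the basement membrane of epithelia, and lies at chr3:48564073-48595329 (hg38, minus strand). It rose from 543 to 3286 counts in BT-16 cells and, in CHLA-266 cells, from 593 to 3769. The 2 cell lines started and ended close to each other, and the log2 fold change was 2.89 ± 0.21 (adjusted *p* = 3.41e-05). Within the cell lines the log2 ratio was 2.85 in BT-16 (95% interval 2.72 to 2.99) and 2.91 in CHLA-266 (2.79 to 3.04). These intervals cover counting error only and are exact (Clopper-Pearson).

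*COL26A1*, at chr7:101362875-101559024 (hg38, plus strand), was the highest collagen per kilobase before treatment and fell in both cell lines. It had 17663 counts before and 3422 after treatment of BT-16 cells, with 13958 and 3510 in CHLA-266 cells. The treated libraries lay below the untreated ones without overlap, with a log2 fold change of -1.93 ± 0.17 (adjusted *p* = 0.000101). The log2 ratio was -2.11 in BT-16 (95% interval -2.17 to -2.06) and -1.75 in CHLA-266 (-1.80 to -1.69). *COL7A1* and *COL26A1* were among 11 collagens that passed in all 11 alternative analyses and with each library left out, the others being *COL1A2*, *COL2A1*, *COL5A3*, *COL6A1*, *COL9A2*, *COL11A2*, *COL12A1*, *COL16A1* and *COL27A1*. *COL13A1* and *COL22A1* passed in the 10 alternatives that tested them and with each library left out.

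The FACIT collagens (fibril-associated collagens with interrupted triple helices), which sit on the surface of fibrils, held 10 genes. Of these, 7 were higher and 3 did not pass, against 16.1% higher and 19.1% lower among all genes. Of the 7, only *COL16A1* lay above the 95th percentile of the olfactory receptor genes in both treated libraries. With the olfactory receptor level subtracted, *COL14A1*, *COL20A1* and *COL21A1* did not pass. *COL12A1*, which coats type I fibrils in tendon and other dense tissue, had 12 and 325 counts in BT-16 cells, with 11 and 162 in CHLA-266 cells (log2 fold change of 4.62 ± 0.61, adjusted *p* = 0.000895). *COL14A1*, a close relative of *COL12A1*, had 4 and 105 counts in BT-16 cells, with 12 and 70 in CHLA-266 cells (adjusted *p* = 0.0164). *COL16A1*, found in skin and cartilage, had 51 and 293 counts in BT-16 cells, with 55 and 316 in CHLA-266 cells (2.77 ± 0.45, adjusted *p* = 0.00246). Each treated library lay above each untreated one for these genes. *COL22A1*, a collagen of the junction between muscle and tendon, had 7 and 163 counts in BT-16 cells, with 1 and 75 in CHLA-266 cells (5.11, adjusted *p* = 0.00557). *COL20A1* had 0 and 185 counts in BT-16 cells, with 21 and 91 in CHLA-266 cells (3.86, adjusted *p* = 0.0454), and did not pass with the expression filter of edgeR (adjusted *p* = 0.0594). *COL21A1* had no count in either untreated library, 83 counts in treated BT-16 and 2 in treated CHLA-266, so that its change, at least 33.0-fold in BT-16 with a floor of 3 counts, rested on that cell line (adjusted *p* = 0.037, and 0.605 without treated BT-16).

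Type IX collagen, a FACIT of cartilage fibrils, is built from 3 chains, of which 1 was called. *COL9A2* had 11 and 148 counts in BT-16 cells, with 10 and 92 in CHLA-266 cells (log2 fold change of 3.73, adjusted *p* = 0.00555). *COL9A3* had 110 and 81 counts in BT-16 cells, with 52 and 72 in CHLA-266 cells, which overlapped (0.19, adjusted *p* = 0.823). The third chain, *COL9A1*, never reached 100 counts and did not pass, and the same held for *COL19A1*, another FACIT. *COL8A2*, *COL23A1*, *COL25A1* and *COL28A1* were the other genes that never reached 100 counts and did not pass, and the 6 genes together ranged from 0 to 82 counts.

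Transmembrane collagens are anchored in the plasma membrane and shed their triple helix. *COL17A1*, the hemidesmosome collagen of epithelia, had 1066 and 1200 counts in BT-16 cells, with 597 and 1102 in CHLA-266 cells (log2 fold change of 0.74 ± 0.27, adjusted *p* = 0.0606). It passed in 9 of 11 alternative analyses, the block among them (adjusted *p* = 0.00684). *COL13A1*, a collagen of the neuromuscular junction, had 6 and 148 counts in BT-16 cells, with 7 and 74 in CHLA-266 cells (4.29, adjusted *p* = 0.00497). *COL25A1*, which was first found in amyloid plaques, passed only with the block (adjusted *p* of 0.0568 without and 0.0206 with it).

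The multiplexins *COL15A1* and *COL18A1* lie in the basement membrane zone, and the end of the *COL18A1* chain is released as endostatin. *COL18A1* had 1693 and 5347 counts in BT-16 cells, with 5693 and 7811 in CHLA-266 cells. Treated BT-16 cells thus reached about the level of untreated CHLA-266 cells, so the conditions overlapped in counts, and the log2 fold change of 1.05 ± 0.50 had an adjusted *p* of 0.131 without and 2.03e-06 with the block. The log2 ratio was 1.91 in BT-16 (95% interval 1.84 to 1.99) and 0.70 in CHLA-266 (0.65 to 0.75). With 1 library per cell line and condition, this difference between the cell lines could not be tested. *COL15A1* had 5 and 76 counts in BT-16 cells, with 0 and 34 in CHLA-266 cells (4.65, adjusted *p* = 0.0347). Among the short-chain network collagens, *COL8A1*, a collagen of Descemet's membrane and vessel wall, had 1 and 89 counts in BT-16 cells, with 0 and 16 in CHLA-266 cells (adjusted *p* = 0.0155, and 0.251 without treated BT-16). *COL10A1*, a marker of hypertrophic cartilage, had 155 and 163 counts in BT-16 cells, with 206 and 54 in CHLA-266 cells and did not pass (-0.53, adjusted *p* = 0.490). *COL8A1* and *COL15A1* lay below the 95th percentile of the olfactory receptor genes in both treated libraries. Neither of these passed with the olfactory receptor level subtracted.

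The ratio of chains that meet in 1 trimer does not depend on depth, because both counts come from the same library. These are ratios of RNA, and protein was not measured here. Their absolute values depend on the transcript length used, whereas their changes between libraries do not. *COL1A1* to *COL1A2*, whose protein product is a trimer with more α1 than α2, had a ratio per kilobase of 1.46 and 9.08 in untreated and treated BT-16 and 0.542 and 7.47 in CHLA-266. *COL6A1* to *COL6A2*, which enter type VI collagen in equal numbers, had a ratio of 0.517 and 1.54 in BT-16 cells, with 0.654 and 1.95 in CHLA-266 cells, a change of 2.97-fold and 2.98-fold. In both pairs the ratio was higher in each treated than in each untreated library. *COL4A1* to *COL4A2* had a ratio of 1.75 and 2.36 in BT-16 cells, with 1.83 and 2.61 in CHLA-266 cells, a change of 1.35-fold and 1.42-fold. *COL4A3* to *COL4A4* had a ratio of 0.571 and 2.56 in BT-16 cells, with 0.755 and 2.42 in CHLA-266 cells. *COL5A1* exceeded *COL5A2* by 308 and 119 times in untreated and treated BT-16 and by 586 and 137 times in CHLA-266, so the gap narrowed in both cell lines. *COL6A3* stayed far below *COL6A1*, with a ratio of at most 0.0263. A level added to every gene would not cancel in these ratios. *COL1A2*, *COL4A3*, *COL4A4*, *COL5A2* and *COL6A3* lay below the 95th percentile of the olfactory receptor genes in both treated libraries. With the olfactory receptor level subtracted, the log2 fold change was -4.10 for *COL1A2* and -1.45 for *COL4A4*, and *COL4A3*, *COL5A2* and *COL6A3* did not pass. The part of this level in the ratios was not tested. With 2 libraries per condition, the two-sided *p* of an exact permutation test of a single ratio is at least 0.333, and none was run.

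**Figure D4:**
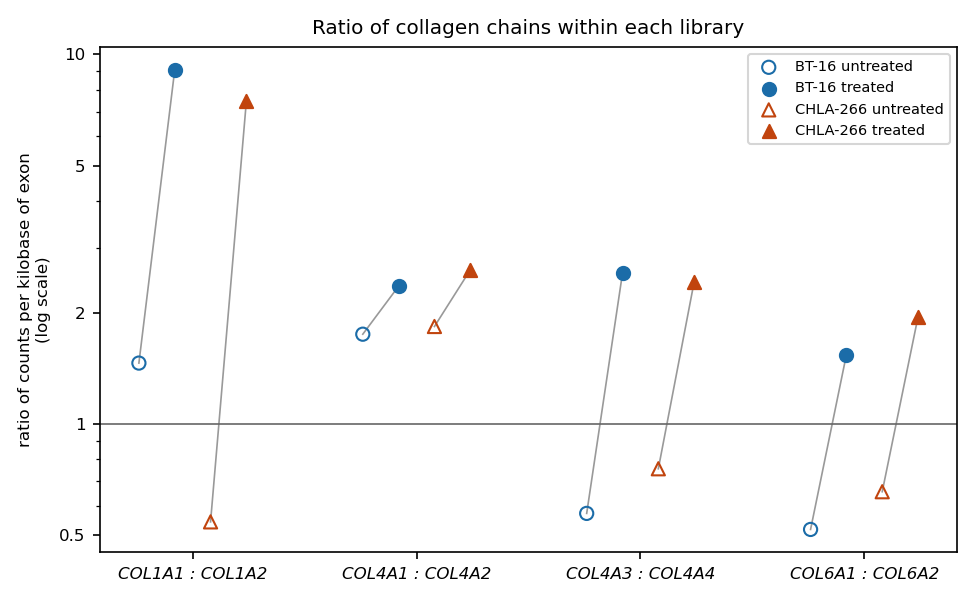
Ratio of counts per kilobase of exon of 4 pairs of chains within each library, on a log scale, with lines that join the untreated (open) and treated (filled) library of a cell line and a horizontal line at 1. The ratio of *COL6A1* to *COL6A2* went from 0.517 to 1.54 in BT-16 and from 0.654 to 1.95 in CHLA-266, and all 4 ratios were higher after treatment in both cell lines. *COL1A2*, *COL4A3* and *COL4A4* lay below the 95th percentile of the olfactory receptor genes in both treated libraries. Where a ratio lies relative to 1 depends on the transcript length used.

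Few collagens differed between the cell lines. With the treatment in the model, 1 of the 42 collagens was higher in BT-16 and 1 was higher in CHLA-266, against 1.46% and 0.836% of all genes. *COL1A1* was the gene higher in BT-16 (log2 difference of 1.22 ± 0.30, adjusted *p* = 0.0214), and *COL18A1* was the gene higher in CHLA-266, with a difference, BT-16 minus CHLA-266, of -1.30 ± 0.19 (adjusted *p* = 5.36e-05). Neither was called with the cell line alone in the model. Leaving out a library could not test these calls, since cell line and treatment together then leave nothing to estimate the spread from.

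The sequences before the start of some genes above are shown so that collagens that rose, fell or did not pass can be set side by side. They come from RefSeq (GRCh38.p14) and cover the 250 bases before an annotated start, and entries were found for 30 of the 42 collagens, with 41 windows in all. Each is written 5′ to 3′ on the strand of the gene, and capitals mark the motifs searched on both strands, namely TATAAA, known as the TATA box, and CCAAT, known as the CCAAT box, as well as GGGCGG, known as the GC box, CACGTG, the E-box that MYC binds, and TGANTCA, the site that AP-1 binds. *COL7A1*, which rose, is at chr3:48595330-48595579 (minus strand), *COL26A1*, which fell, at chr7:101362625-101362874 (plus strand), *COL5A1*, which did not pass, at chr9:134641553-134641802 (plus strand), and *COL4A3*, which rose, at chr2:227164374-227164623 (plus strand).
COL7A1: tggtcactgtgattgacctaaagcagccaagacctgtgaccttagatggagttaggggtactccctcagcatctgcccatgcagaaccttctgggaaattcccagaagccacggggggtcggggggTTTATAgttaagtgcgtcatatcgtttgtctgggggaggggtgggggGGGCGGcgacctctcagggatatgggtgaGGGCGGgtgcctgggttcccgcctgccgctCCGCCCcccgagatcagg
COL26A1: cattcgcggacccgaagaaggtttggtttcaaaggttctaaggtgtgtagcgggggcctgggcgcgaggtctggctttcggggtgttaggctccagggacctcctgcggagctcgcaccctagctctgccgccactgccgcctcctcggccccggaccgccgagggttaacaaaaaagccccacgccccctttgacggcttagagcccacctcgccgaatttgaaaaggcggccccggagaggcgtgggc
COL5A1: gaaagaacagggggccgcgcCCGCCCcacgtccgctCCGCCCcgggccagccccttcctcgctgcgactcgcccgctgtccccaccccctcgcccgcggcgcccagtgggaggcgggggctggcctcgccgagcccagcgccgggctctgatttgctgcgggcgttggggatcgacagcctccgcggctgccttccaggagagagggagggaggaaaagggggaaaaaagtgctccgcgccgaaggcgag
COL4A3: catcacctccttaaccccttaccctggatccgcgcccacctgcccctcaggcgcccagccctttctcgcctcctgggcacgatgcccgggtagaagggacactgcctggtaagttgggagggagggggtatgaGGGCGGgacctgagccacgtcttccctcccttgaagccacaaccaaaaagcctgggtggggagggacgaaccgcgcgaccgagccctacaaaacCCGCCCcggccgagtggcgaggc
The window of *COL7A1* held 1 TATA box and 3 GC boxes, those of *COL5A1* and *COL4A3* held 2 GC boxes each, and that of *COL26A1* held none of the 5 motifs. No matches overlap in these windows. Of the 41 collagen windows, 8 (19.5%) held TATAAA, 10 (24.4%) CCAAT, 23 (56.1%) GGGCGG, 0 CACGTG and 1 (2.44%) TGANTCA. Over all 35116 windows of this table the shares were 10.7%, 32.0%, 42.6%, 6.34% and 6.57%. These matches describe letters in the window and say nothing about binding.

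*COL4A1* and *COL4A2* point away from each other, with 126 bases between their RefSeq starts, and are shown because they share this stretch while *COL4A2* alone was called lower. The sequence is chr13:110307158-110307283 (GRCh38.p14), written on the plus strand, the strand of *COL4A2*, with motifs in capitals.
COL4A1-COL4A2: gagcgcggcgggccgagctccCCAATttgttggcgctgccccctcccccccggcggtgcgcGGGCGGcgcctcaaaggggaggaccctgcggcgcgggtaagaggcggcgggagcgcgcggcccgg
It held 1 CCAAT and 1 GGGCGG. *COL4A3* and *COL4A4* lie in the same head-to-head order with 418 bases between their starts, and of this pair *COL4A3* was called higher and *COL4A4* was not called.

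Of 19 genes for the modification and folding of the chains, 4 were higher, 4 lower and 11 did not pass, with a median log2 fold change of -0.05. These shares are near the 16.1% higher and 19.1% lower among all genes. *P4HB*, a subunit of the prolyl hydroxylase, had 60871 and 32929 counts in BT-16 cells, with 51410 and 36225 in CHLA-266 cells (-0.44, adjusted *p* = 0.0818) and was called lower with the block. *SERPINH1*, the collagen chaperone HSP47, had 46255 and 39925 counts in BT-16 cells, with 33233 and 27447 in CHLA-266 cells (0.01, adjusted *p* = 0.972). *P3H3* fell from 7402 to 2342 and from 4973 to 2118 counts (-1.21, adjusted *p* = 0.00168). *P3H4* (-0.79) and *COLGALT1*, a collagen galactosyltransferase (-0.80), fell as well, and its paralog *COLGALT2* rose from 451 to 757 and from 291 to 904 counts (1.44, adjusted *p* = 0.00789). Of 6 genes for secretion, 1 was higher, which is also near the share of all genes. It was *CREB3L1*, a transcription factor of secretory cells (3 and 70 counts in BT-16 cells, with 3 and 36 in CHLA-266 cells, adjusted *p* = 0.019). *CREB3L1* lay below the 95th percentile of the olfactory receptor genes in both treated libraries. *SEC23A*, a coat protein of secretory vesicles, was not called (-0.26, adjusted *p* = 0.204), nor were *SEC24D* and *KLHL12*.

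Of 13 genes for propeptide cleavage and cross-linking, 5 were higher, 3 lower and 5 did not pass, against 16.1% higher and 19.1% lower among all genes. The share of lower genes is near that of all genes. With the block, 4 were higher and 3 lower, against 17.9% and 23.7% of all genes. None of the 5 higher genes lay above the 95th percentile of the olfactory receptor genes in both treated libraries. *PCOLCE2*, an enhancer of procollagen cleavage, fell from 2999 to 1292 counts in BT-16 cells and, in CHLA-266 cells, from 2215 to 724 (-1.13, adjusted *p* = 0.00997), and its paralog *PCOLCE* fell from 369 to 70 and from 229 to 35 (-2.26, adjusted *p* = 0.0113). *LOXL3*, a lysyl oxidase that cross-links collagen, fell from 697 to 181 and from 506 to 129 counts (-1.71, adjusted *p* = 0.00653). *LOX*, the founding member of that family, had 98 and 140 counts in BT-16 cells, with 67 and 86 in CHLA-266 cells and did not pass (0.70, adjusted *p* = 0.349). *TLL2*, a relative of the procollagen protease *BMP1*, rose from 75 to 243 and from 68 to 246 counts (2.03, adjusted *p* = 0.0101), whereas *BMP1* itself did not pass (0.17, adjusted *p* = 0.475).

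Among the 10 collagen receptors, 3 were higher and 7 did not pass, against 16.1% higher and 19.1% lower among all genes. *DDR2*, a receptor kinase that binds fibrillar collagen, had 10079 and 10536 counts in BT-16 cells, with 7232 and 14129 in CHLA-266 cells (0.78 ± 0.22, adjusted *p* = 0.0249), and its relative *DDR1* did not pass (-0.09, adjusted *p* = 0.844). *ITGB1*, the β subunit shared by the collagen-binding integrins, had a log2 fold change of -0.06 (adjusted *p* = 0.787). *ITGA1*, one of the α subunits, had 2 and 141 counts in BT-16 cells, with 6 and 57 in CHLA-266 cells (4.78, adjusted *p* = 0.00734). *LAIR1*, an inhibitory receptor of immune cells, had no count in either untreated library and 63 and 69 in the treated ones (adjusted *p* = 0.00412), and *ITGA10* was called only with the block (1.19, adjusted *p* = 0.0612 without it). *ITGA1* and *LAIR1* lay below the olfactory receptor level in both treated libraries.

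Of the 10 collagen-binding matrix proteins tested, 3 were higher and 7 did not pass, beside the same shares of all genes (16.1% and 19.1%). *FN1*, which encodes fibronectin, had 486 and 1314 counts in BT-16 cells, with 624 and 878 in CHLA-266 cells (1.21 ± 0.28, adjusted *p* = 0.0122). *HSPG2*, the basement membrane proteoglycan perlecan, had 52335 and 48409 counts in BT-16 cells, with 40836 and 35922 in CHLA-266 cells and did not pass (0.10, adjusted *p* = 0.658), and *MATN2* was called only with the block (0.95, adjusted *p* = 0.0853 without it). *SPARC* and *NID1*, at 120 counts or fewer in every library, were the other higher genes, and *NID1* was not called with the block. Both lay below the 95th percentile of the olfactory receptor genes in both treated libraries. Of 7 collagen-degrading proteases, 2 were called higher, beside the same shares of all genes. They were *MMP9* (7 and 177 counts in BT-16 cells, with 0 and 35 in CHLA-266 cells) and *MMP13* (0 and 35, and 0 and 10), *MMP13* only without the block. *MMP13* lay below the 95th percentile of the olfactory receptor genes in both treated libraries, and *MMP9* in treated CHLA-266. *MMP1* and *MMP2* were not called, and *MMP14*, a membrane-bound collagenase, had a log2 fold change of -0.10 (adjusted *p* = 0.670).

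Of 31 markers of other cell types, 10 were higher, against 16.1% of all genes. Of 10 fibroblast markers, 1 was higher and 9 did not pass, with a median log2 fold change of 1.36, and their sum was 22.0 CPM before and 21.0 CPM after treatment of BT-16, with 6.34 and 10.7 CPM for CHLA-266. *MFAP5*, which encodes a protein of elastic fibers, held most of it except in treated CHLA-266, with 1388 and 649 counts in BT-16 cells, with 294 and 236 in CHLA-266 cells. *PDGFRA*, a growth factor receptor of fibroblasts and glial progenitors, was the marker called higher, with 11 and 128 counts in BT-16 cells, with 15 and 206 in CHLA-266 cells (3.93, adjusted *p* = 0.00319). *PDGFRB* (26 and 156, and 42 and 57 counts) and *THY1* (24 and 97, and 15 and 26) did not pass (adjusted *p* of 0.0824 and 0.146). *LUM*, a defining fibroblast gene, had 16 and 8 counts in BT-16 and none in CHLA-266, and *DCN* had 36 and 36 in BT-16 cells, with 4 and 24 in CHLA-266 cells. Of 5 endothelial markers, 3 were higher, and their sum went from 2.04 to 10.8 CPM in BT-16 cells and from 1.14 to 7.89 CPM in CHLA-266 cells. The sums of 5 pericyte and smooth muscle markers (2 higher) ranged from 6.11 to 6.87 CPM in untreated and from 9.85 to 11.1 CPM in treated libraries. The sums of 5 macrophage markers (1 higher) ranged from 3.35 to 6.45 and from 7.31 to 9.43 CPM. The marker called higher was *ITGAM*, an integrin of myeloid cells, with 4 and 111 counts in BT-16 cells, with 4 and 196 in CHLA-266 cells (5.49, adjusted *p* = 0.00127), whereas *CD68* had at most 3 counts in any library. Of 4 chondrocyte markers, 2 were higher, and *SOX9*, the transcription factor that drives cartilage collagens and is also used by many progenitor cells, rose from 6 to 520 counts in BT-16 cells and, in CHLA-266 cells, from 6 to 508 (log2 fold change of 6.64, adjusted *p* = 2.74e-05). *ACAN*, which encodes the cartilage proteoglycan aggrecan, had 20 and 163 counts in BT-16 cells, with 3 and 61 in CHLA-266 cells (3.53, adjusted *p* = 0.0234). Of 2 astrocyte markers, *GFAP* was higher, with 6 and 167 counts in BT-16 cells, with 4 and 78 in CHLA-266 cells (adjusted *p* = 0.00307). Of the 10 higher markers, only *SOX9* lay above the 95th percentile of the olfactory receptor genes in both treated libraries. The endothelial marker *VWF* did so in BT-16 only, and *ITGAM* and the pericyte marker *RGS5* in CHLA-266 only. *PDGFRA*, *ACAN*, *GFAP*, the endothelial markers *CDH5* and *KDR*, and the muscle marker *DES* did so in neither. The part of such cells in the collagen differences was not tested.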

How the data were processed

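Sequencing covered 4 libraries, 1 per cell line (BT-16, CHLA-266) and condition (untreated, doxo, eto and vin). Per the methods of the study, libraries were made with the SMART-Seq Stranded kit, demultiplexed with bcl2fastq 2.20, trimmed, aligned to hg38 with STAR and counted per gene. The authors deposited estimated counts per gene without normalization. Rounding touched 5 values of 2 genes. The deposited log2 values come from the variance-stabilizing transformation (VST) of DESeq2, cover 17553 genes and were used only as an alternative. How read pairs were counted is not given in the sources used here, and even numbers prevailed among low counts. If each read of a pair was counted, the intervals are too narrow. They cover counting error only.

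The collagen genes, gene lists and the rule for named genes were chosen with earlier results of these data known. Genes were named by that rule: each collagen once, with counts where it passed the threshold or reached 100 counts in a library, and of each other list the up to 4 genes of smallest adjusted *p*, the gene of highest mean CPM and *SERPINH1*, *LOX*, *DDR1*, *DDR2* and *FN1*. The cell type markers named, *SMARCB1* and *MYC* were chosen after their values were seen. Of 18449 symbols, 383 had no count, which left 18066 for edgeR 4.0.16 in R 4.3.3 (quasi-likelihood test, TMM, Benjamini-Hochberg adjustment over all genes, treatment only). The TMM factor was 0.919 before and 1.12 after treatment for BT-16, and 0.930 and 1.04 for CHLA-266. The cell lines served as replicates, so *p* values measure the spread between 2 lines. Same-numbered libraries are paired by the cell line itself, and over 15972 genes, which are no independent replicates, their deviations from the means of the conditions correlated with 0.158. The SE is the log2 fold change divided by the root of the F statistic. Log2 ratios within a cell line used TMM and 0.5 added counts, with exact Clopper-Pearson 95% intervals. Exon lengths of 18344 symbols and gene positions come from GENCODE 44 (hg38), and level is counts per kilobase of all exons. Fits were tested on simulated counts first. Alternatives were the cell line block, DESeq2 1.42.0, other normalizations, filters, limma 3.58.1 on VST values, halved counts, and each library left out, and 3 were added after seeing the data: the subtracted olfactory receptor level, shares without *COL5A1* and *COL26A1*, and the canonical transcript length.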

Additional observations from a re-analysis of the deposited data

Results flagged for a closer look

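The log2 ratios of *COL9A3* and *COL10A1*, treated over untreated, had opposite signs in the 2 cell lines. This difference between the lines was not tested, as each line has 1 library per condition, and neither gene passed the test. *COL9A3*, a chain of type IX collagen, had a log2 ratio of -0.18 in BT-16 (95% interval -0.62 to 0.24, which covers 0) and 0.71 in CHLA-266 (0.18 to 1.26). *COL10A1*, the collagen of hypertrophic cartilage, had a log2 ratio of 0.33 in BT-16 (0.00 to 0.65) and -1.68 in CHLA-266 (-2.15 to -1.25), and with halved counts, as if each read of a pair had been counted, its interval in BT-16 was -0.14 to 0.79 and covers 0. No direction in BT-16 is thus shown for either gene.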

How the results depend on the processing

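The number of higher collagens, 23, was 20 to 29 under the other alternatives, 14 with at least 10 counts in every library (fewer genes tested), 13 with the olfactory receptor level subtracted, and 20 to 24 with each library left out, where a lone library is assumed to vary like the others. The lower count was 2 or 3. Over all genes, 2253 of 12620 were higher with at least 10 counts, and 2042 of 17376 with the olfactory receptor level subtracted. With the cell line as a block, 27 were higher and 3 lower, and the paired fit dropped none of the 26 calls. *COL1A1*, the gene higher in BT-16, gave 0 with DESeq2, both filters, limma, the cell line alone and each library left out (0 to 0), and *COL18A1*, the gene higher in CHLA-266, gave 0 with at least 10 counts, limma, the cell line alone and each library left out (0 to 0). The median of all genes was 0.24 with TMM, 0.31 with the size factors of DESeq2, 0.47 from library totals, and 0.59 after upper-quartile scaling. The fibrillar median was 2.67 with upper quartiles, 2.55 with totals, 2.15 with at least 10 counts, 2.20 with the edgeR filter, 0.81 with limma and 2.14 to 2.59 with each library left out. The type IV median was 0.11 with DESeq2 and the block, 0.37 with upper quartiles, 0.25 with totals, 0.21 with at least 10 counts, -0.18 with the subtracted level and -0.16 to 0.28 with each library left out. The beaded median was 0.77 with limma, 1.05 without untreated BT-16 and 2.12 without untreated CHLA-266. The median of the other collagens was 3.17 with the block, 3.36 with DESeq2 and the block, 3.18 with upper quartiles, 3.06 with totals, 1.46 with at least 10 counts, 0.80 with limma, 2.93 with the subtracted level and 2.71 to 2.97 with each library left out. Higher collagens above the olfactory receptor level in both treated libraries numbered 3 at the 99th percentile and 8 with canonical transcript lengths. The sign turned for *COL4A1* (0.27 with upper quartiles, 0.15 with totals, 0.10 with at least 10 counts, 0.071 with the subtracted level), *COL6A2* (0.0074 with upper quartiles), *COL4A4* (-1.45 with the subtracted level, -0.21 to 0.62 with each library left out), *COL9A3* (-0.18 and -0.19 to 0.72) and *COL10A1* (-1.43 to 0.022). None of these 5 genes was called. Where no construction is named, the cause was not tested. Depth limits the genes under 100 counts, and 2 libraries per condition limit all tests.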
